A study of Homo sapiens with 12 samples.

Results

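NF-kB is a family of dimeric transcription factors. The 10 genes described here include 4 of its subunits (NFKB1, RELA, NFKB2, RELB) and 3 members of the IkB family (NFKBIA, NFKBIE, NFKBIZ). The other 3 are known as targets of the pathway (TNFAIP3, BIRC3, ICAM1). They were chosen by name from the 22506 genes of the count table. All 10 are listed there and all 10 were among the 14008 genes with enough reads to be tested. The study sequenced RNA from 12 libraries of 4 human cell lines, H1703, H1299, CHAGO and CALU, which the series' title assigns to lung squamous cell carcinoma. Each line gave 1 library of adherent parental cells, 1 of tumor-initiating cells (TICs) and 1 of TICs with a knock down of PRKCI, the gene of protein kinase C iota. The 4 lines therefore stand as the 4 replicates of each of the 3 states, and no line and state was repeated. How the knockdown was made, how the TICs were grown, and what control the parental and TIC libraries received, is not stated by the labels. Parental cells with a PRKCI knockdown, which the design text names, are not among the 12 libraries.

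In resting cells NF-kB dimers are held in the cytoplasm by IkB proteins. Receptors for tumor necrosis factor, interleukin 1 and microbial products activate the IkB kinase complex, the IkB proteins are degraded, and dimers of RELA and the p50 product of NFKB1 enter the nucleus. A slower branch works through processing of NFKB2 and its partner RELB. The pathway induces its own inhibitors, which is why NFKBIA and TNFAIP3 are widely used as readouts of it, and in lung cancers it is known for driving genes of inflammation and cell survival.

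Totals were 21165030 to 36060810 reads per library in H1703 and H1299 and 63759326 to 91763055 in CHAGO and CALU, so low levels are known less precisely in the first pair of lines. PRKCI checked the knockdown label. It stood at 303, 342 and 58.1 CPM (reads of a gene per 1000000 reads, after scaling) in H1703 parental, TIC and knockdown TIC libraries, at 309, 199 and 25.8 in H1299, at 357, 608 and 23.2 in CHAGO and at 261, 237 and 41.5 in CALU. The knockdown libraries were the lowest of each line, and PRKCI fell by 3.15 on the log2 scale against TICs (SE 0.37, edgeR adjusted p = 0.0489). That adjusted p ran from 3.38e-13 to 0.597 over 15 alternatives and was under the threshold of 0.05 in 6 of them. Epithelial markers (EPCAM, CDH1, KRT8, KRT18, KRT19) summed to 0.193 to 1.64 CPM in H1703, with EPCAM and CDH1 at 0, against 23.1 to 28.1 in H1299, 132 to 354 in CALU and 1452 to 1945 in CHAGO. The 7 squamous markers summed to 100.03 to 165 CPM in H1703, 147 to 165 in H1299, 283 to 725 in CHAGO and 138 to 255 in CALU. Among them TP63 reached 43.9 CPM in CHAGO and 45.2 in CALU but at most 0.225 in H1703 and 0.132 in H1299. KRT6A and DSG3 reached 43.6 and 30.4 CPM in CHAGO and were at 0 in the other lines, SOX2 reached 38.8 CPM in H1299, KRT5 and KRT14 at most 2.52 and 2.47 CPM in any library, and PERP was present in every library (lowest 100.03, highest 599.5 CPM). The 7 leukocyte markers summed to 417 to 810 CPM in H1703, 264 to 530 in H1299, 1.20 to 149 in CHAGO and 219 to 271 in CALU. CD68 reached 809 CPM and ITGAM 78.9 CPM, both in H1703, while PTPRC reached at most 0.704 CPM and CD3E was at 0 in all libraries.

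The binding site that gives the pathway its name, the kappa B decamer, stood in the promoters of several of the 10 genes. RefSeq promoters (build GRCh38.p14) were at hand for 8 of the 10 (13 entries, since some genes have several starts; RELB and NFKBIE had none), and the 250 bases before each start were searched on both strands for the kappa B consensus decamer. It was found for 6 of the 8 genes and in 8 of the 13 entries, while 11.8% of all 27305 genes and 9.96% of all 35116 promoters held one. The count is a description of letters in a window, and the 10 genes include several that are known for kappa B sites. The stretches below are shown because they hold matches of 6 of the genes, read 5′ to 3′ on the gene's strand with each match in capitals. NFKBIA lies on chr14:35404750-35404999 (minus strand), BIRC3 on chr11:102317234-102317449 (plus strand), the first NFKBIZ start on chr3:101827740-101827989 (plus strand) and the last NFKB2 start on chr10:102395455-102395704 (plus strand). None of these 4 stretches overlaps an annotated exon of GENCODE v29. For TNFAIP3 (chr6:137867188-137867217, plus strand) and NFKB1 (chr4:102501300-102501329, plus strand), whose windows overlap annotated exons, only 30 bases are shown.
NFKBIA: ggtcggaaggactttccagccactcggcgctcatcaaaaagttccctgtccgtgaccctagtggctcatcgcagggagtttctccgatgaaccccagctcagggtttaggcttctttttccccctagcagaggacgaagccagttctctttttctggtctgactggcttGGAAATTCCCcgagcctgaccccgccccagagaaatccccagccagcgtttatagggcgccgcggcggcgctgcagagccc
BIRC3: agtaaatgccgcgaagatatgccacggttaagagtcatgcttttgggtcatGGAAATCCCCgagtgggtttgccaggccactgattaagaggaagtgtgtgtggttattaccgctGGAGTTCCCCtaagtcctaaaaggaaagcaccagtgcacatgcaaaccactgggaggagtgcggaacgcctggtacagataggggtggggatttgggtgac
NFKBIZ: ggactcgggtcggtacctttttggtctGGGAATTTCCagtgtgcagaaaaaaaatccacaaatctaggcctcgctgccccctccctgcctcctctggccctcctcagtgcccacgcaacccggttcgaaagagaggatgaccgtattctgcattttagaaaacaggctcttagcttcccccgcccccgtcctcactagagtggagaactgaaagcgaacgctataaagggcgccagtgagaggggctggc
NFKB2: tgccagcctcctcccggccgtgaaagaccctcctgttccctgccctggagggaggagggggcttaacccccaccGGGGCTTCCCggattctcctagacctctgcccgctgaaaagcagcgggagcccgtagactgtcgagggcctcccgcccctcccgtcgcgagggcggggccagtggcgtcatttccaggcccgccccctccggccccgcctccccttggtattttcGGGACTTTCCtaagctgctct
TNFAIP3: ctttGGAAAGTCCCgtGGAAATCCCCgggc
NFKB1: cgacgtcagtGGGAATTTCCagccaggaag

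**Figure D1:**
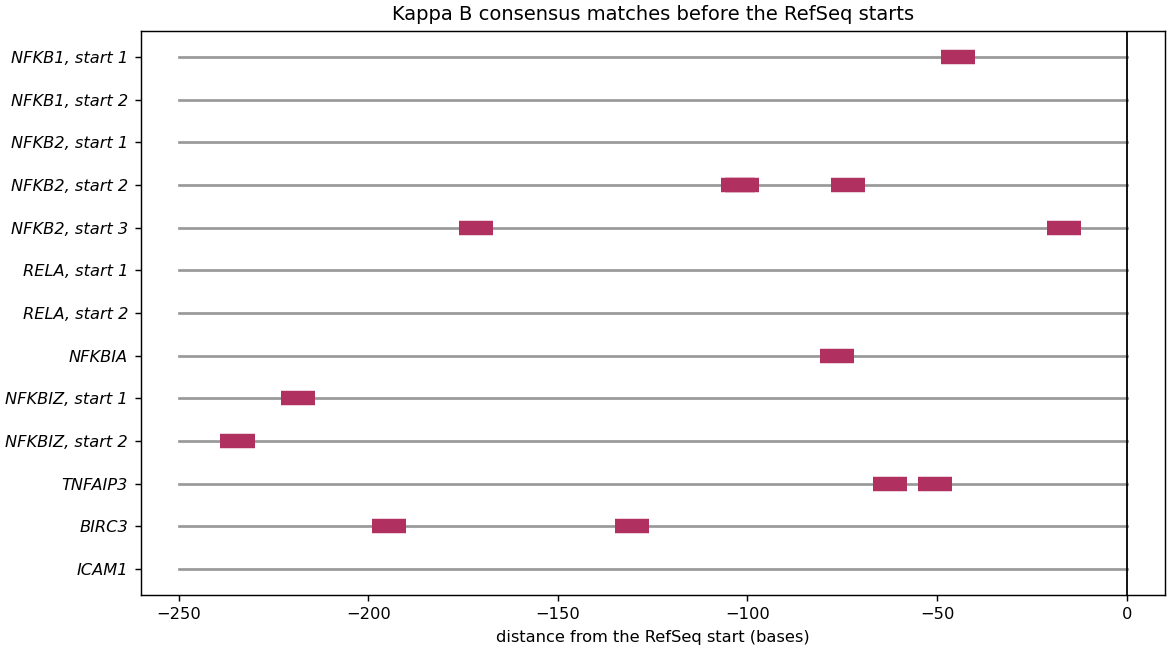
Positions of kappa B consensus matches in the 250 bases before 13 RefSeq starts of 8 genes (x axis, distance from the start in bases; 1 row per start; bars mark matches of 10 bases). Matches stand before 8 of the 13 starts, and none before the starts of RELA and ICAM1.

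NFKB1 and the first NFKBIZ start carried the same decamer, GGGAATTTCC. BIRC3 and TNFAIP3 shared GGAAATCCCC. In TNFAIP3 both matches lay within 67 bases of the start, and in BIRC3 they lay 126 to 199 bases away. No match was found in the windows of RELA and ICAM1, which says only that these letters are not in these windows.

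NFKB1 and RELA, the subunits of the fast branch, were expressed in all 12 libraries with little spread. NFKB1 stood at 107, 46.0 and 57.2 CPM in H1703 parental, TIC and knockdown TIC libraries, at 71.7, 42.8 and 35.9 in H1299, at 41.3, 82.5 and 48.9 in CHAGO and at 48.4, 29.3 and 58.5 in CALU. CHAGO was the line in which the TIC library was the highest of its 3, and in the other lines it was below the parental one. RELA stood at 66.4, 77.7 and 73.3 CPM in H1703, at 42.6, 35.6 and 37.4 in H1299, at 23.1, 33.96 and 29.6 in CHAGO and at 44.3, 35.3 and 47.9 in CALU, in the same order of states. The 3 H1703 libraries were above all 9 others. From the lowest to the highest library NFKB1 spanned 3.65-fold and RELA 3.36-fold, the narrowest spans of the 10 genes. RELA exons overlap an annotated gene on the other strand (AP001362.2), and whether reads were counted by strand is not stated.

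NFKB2 and RELB, the subunits of the slow branch, were lower and varied more. NFKB2 held 15.8, 14.7 and 14.1 CPM in H1703, 5.69, 1.26 and 0.485 in H1299, 0.450, 1.68 and 3.09 in CHAGO and 0.346, 0.942 and 9.08 in CALU (parental, TIC, knockdown TIC). The states were level in H1703, descended in H1299 and ascended in CHAGO and CALU. RELB held 4.73, 8.15 and 2.51 CPM in H1703, 4.47, 4.49 and 4.99 in H1299, 0.240, 0.820 and 2.93 in CHAGO and 1.29, 3.78 and 4.19 in CALU. The ascent from parental to knockdown TICs was again present in CHAGO and CALU, and the H1299 libraries were level.

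NFKBIA encodes IkB alpha, the inhibitor that the pathway resynthesizes to switch itself off. It stood at 72.4, 15.5 and 10.6 CPM in H1703, at 8.32, 19.5 and 16.8 in H1299, at 48.3, 70.7 and 94.0 in CHAGO and at 19.8, 97.2 and 273 in CALU. H1703 thus ran from high to low across the states while CHAGO and CALU ran from low to high. NFKBIE encodes IkB epsilon, a related inhibitor. It stood at 3.13, 5.27 and 4.36 CPM in H1703, at 4.37, 0.420 and 1.37 in H1299 and at 0.889, 1.11 and 3.55 in CALU. In CHAGO it had only 4, 21 and 11 reads, or 0.0600, 0.257 and 0.145 CPM. Pooled over the 3 CHAGO libraries, without scaling between libraries, that was 0.159 CPM (95% Poisson interval 0.112 to 0.221), against 4.24 in H1703 (3.78 to 4.73). Intervals of this kind cover counting error only.

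NFKBIZ encodes IkB zeta, a nuclear family member that works as a cofactor at some target genes. It stood at 4.29, 0.405 and 4.90 CPM in H1703, at 14.1, 12.7 and 10.99 in H1299, at 22.5, 4.82 and 22.9 in CHAGO and at 17.3, 66.1 and 126 in CALU. In H1703 and CHAGO the TIC library was the low one and the knockdown library was near the parental level, whereas in CALU the TIC library was above the parental and below the knockdown one.

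TNFAIP3 encodes A20, a ubiquitin-editing enzyme that shuts down signaling to the IkB kinases. It stood at 0.218, 2.295 and 0.0386 CPM in H1703 (6, 51 and 1 reads), at 1.74, 8.75 and 17.7 in H1299, at 0.750, 12.1 and 23.0 in CHAGO and at 11.4, 52.1 and 94.2 in CALU. The TIC library was above the parental one in every line, and the knockdown library was the highest in all lines but H1703. BIRC3 encodes cIAP2, a ubiquitin ligase of the tumor necrosis factor receptor complex. It stood at 281, 59.5 and 49.1 CPM in H1703, at 200.5, 137 and 443 in H1299, at 15.9, 126 and 188 in CHAGO and at 83.3, 101 and 902 in CALU. The knockdown library was the highest in 3 lines and the lowest in H1703. CALU knockdown TICs held its highest level, and CHAGO parental cells its lowest.

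ICAM1 encodes an adhesion molecule that binds leukocyte integrins. It stood at 7.02, 20.4 and 70.1 CPM in H1299 and at 9.12, 161 and 218 in CALU, ascending through the 3 states in both. In H1703 it had 0, 1 and 0 reads and in CHAGO 0, 3 and 0, where 3 reads would be 0.109 to 0.135 CPM per H1703 library and 0.0367 to 0.0450 per CHAGO library. ICAM1 exons overlap 2 annotated genes on the other strand (AC011511.2 and AC011511.5).

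**Figure D2:**
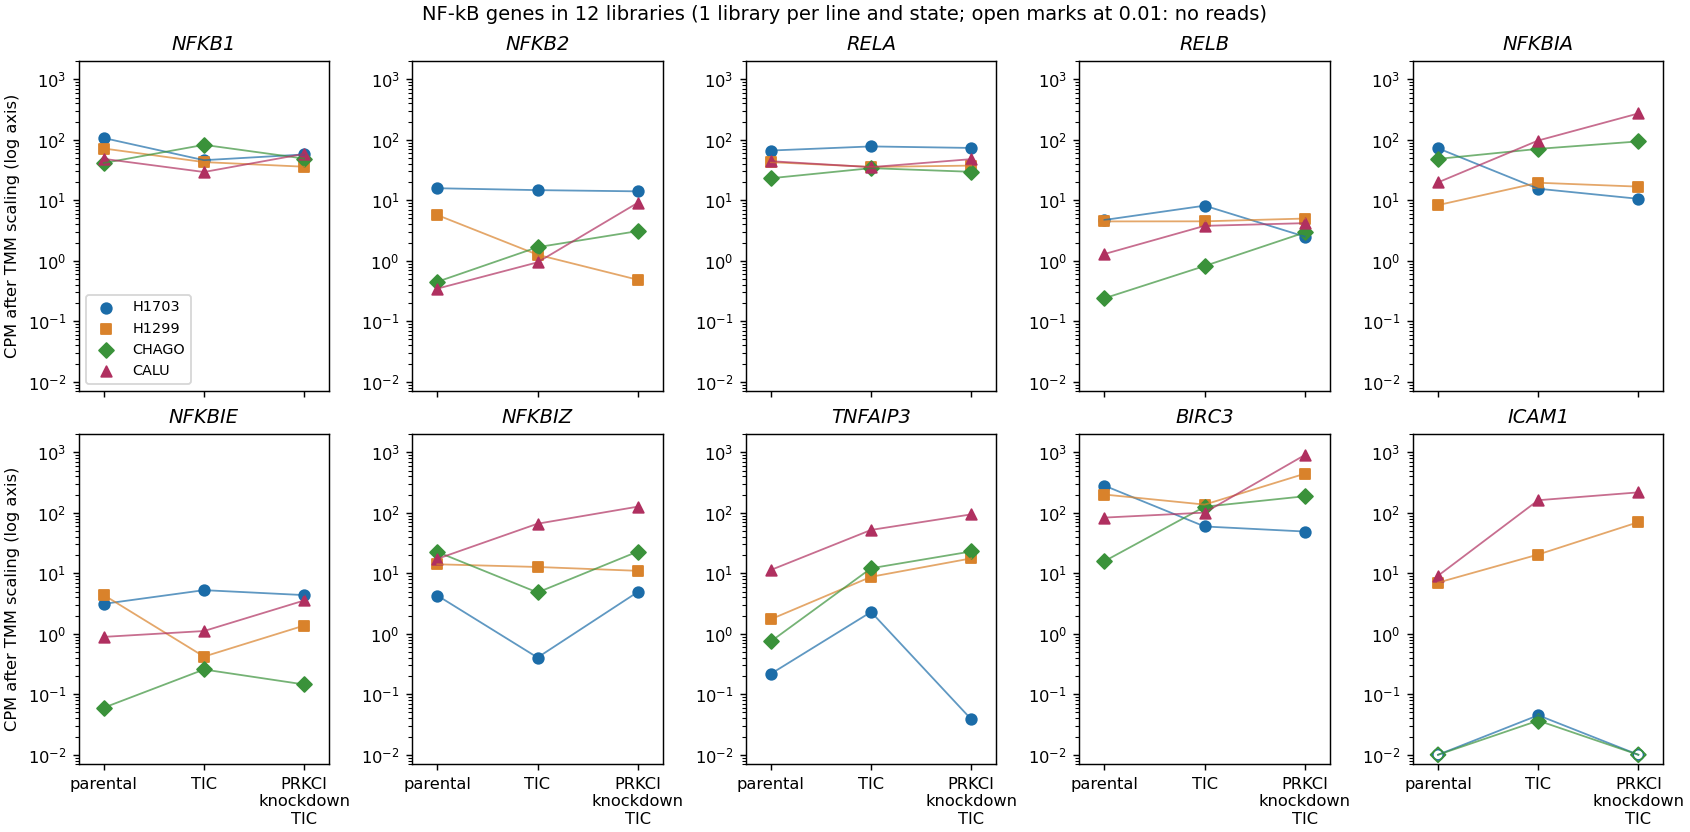
Level of each of the 10 genes in the 12 libraries (y axis, CPM after TMM scaling on a log axis; x axis, state; 1 line of points per cell line; open marks at 0.01 stand for no reads). NFKB1 and RELA span less than the other 8 genes, and ICAM1 is near 0 in H1703 and CHAGO.

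Levels can be compared between genes only per length. Per kilobase of exon (lengths from GENCODE v29) the mean over the 4 TIC libraries was 26.7 CPM for NFKBIA (SD 21.0), 15.3 for BIRC3 (SD 4.97) and 14.0 for ICAM1 (SD 24.0). RELA and NFKB1 followed at 13.5 (SD 6.31) and 9.08 CPM per kilobase (SD 4.11), and NFKBIZ and TNFAIP3 at 5.01 (SD 7.27) and 3.97 (SD 4.77). RELB, NFKB2 and NFKBIE were last at 1.87 (SD 1.31), 1.26 (SD 1.82) and 0.683 (SD 0.916). Each neighbouring pair in this order differed by less than the larger SD of the pair.

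TICs were compared with parental cells to ask what distinguishes the tumor-initiating state. TNFAIP3 and ICAM1 had the largest fitted differences of the 10 genes, both toward higher levels in TICs, and neither passed the test. TNFAIP3 averaged 3.52 CPM in parental cells (SD 5.27, n = 4 lines) and 18.8 in TICs (SD 22.6, n = 4 lines). Its TIC level was 10.5-fold the parental level in H1703, 5.02-fold in H1299, 16.1-fold in CHAGO and 4.59-fold in CALU. The fit with the line as a block gave a log2 fold change of 3.01 (SE 0.89, unadjusted p = 0.00697, edgeR adjusted p = 0.248). For ICAM1 the fit gave 3.18 (SE 0.81, unadjusted p = 0.00274, edgeR adjusted p = 0.206), which rests on a 2.91-fold difference in H1299 and a 17.7-fold one in CALU, since the other lines had at most 3 reads.

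At an adjusted p of 0.05 in edgeR, 0 of the 10 genes were called in this comparison, beside 0.0286% of all genes tested, and 2 had an unadjusted p under 0.05, beside 11.8% of all genes. DESeq2, which called 511 of all genes tested, called TNFAIP3 (adjusted p = 0.00925) and ICAM1 (adjusted p = 0.0112), and voom in limma called 0 of the 10. Over all alternatives the adjusted p of TNFAIP3 ran from 0.00925 to 0.9996 and that of ICAM1 from 0.0112 to 0.9996, with DESeq2 giving the lowest of each (edgeR, DESeq2 and limma). The log2 fold change of TNFAIP3 lay between 2.42 and 3.28 in these alternatives and that of ICAM1 between 1.81 and 4.52, with 4.52 reached without H1299. The ranges of the parental and TIC libraries overlapped for all 10 genes.

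The other 8 genes split by line. RELB was higher in TICs in 4 of 4 lines, though by only 1.003-fold in H1299 (log2 fold change 0.87, SE 0.81, edgeR adjusted p = 0.727), and 8.32% of all genes were higher in 4 of 4 lines. NFKBIA was lower in H1703 TICs by 2.22 on the log2 CPM scale and higher by 1.22 in H1299, 0.55 in CHAGO and 2.296 in CALU. BIRC3 was lower in H1703 (−2.24) and H1299 (−0.55) and higher in CHAGO (2.99) and CALU (0.27). NFKBIZ was lower in H1703 (−3.29), H1299 (−0.15) and CHAGO (−2.22) and higher in CALU (1.93). The fitted log2 fold changes of NFKB1, NFKB2, RELA, NFKBIA, NFKBIE, NFKBIZ and BIRC3 lay between −0.88 and 0.09 (edgeR adjusted p 0.711 to 0.996).

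Within single lines the 10 genes were mostly higher in TICs in CHAGO and CALU. Genes with at most 3 reads in both libraries of a line were left out, which removes ICAM1 from H1703 and CHAGO. In CHAGO 8 of 9 were higher in TICs (50% of all genes) with a median difference of 1.59 in log2 CPM, and in CALU 8 of 10 were higher (52.1% of all genes) with a median of 1.43. In H1703 4 of 9 were higher (48.4% of all genes) with a median of −0.10, and in H1299 4 of 10 (49.1%) with a median of −0.20. The median over all genes was between −0.04 and 0.05 in each line. These are differences between 1 library and 1 library, with no replicate check, and a difference of effect between lines cannot be tested in this design.

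**Figure D3:**
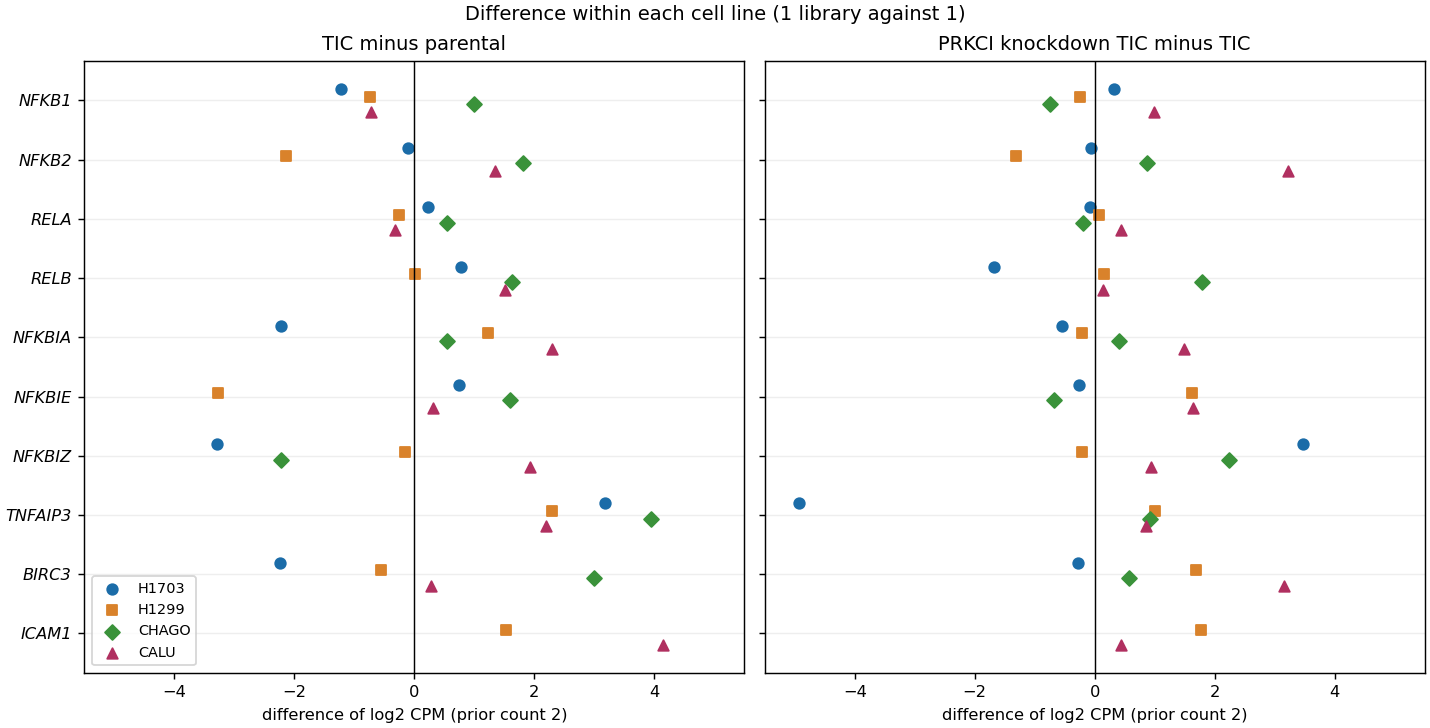
Differences of log2 CPM within each cell line for the 10 genes (left, TIC minus parental; right, PRKCI knockdown TIC minus TIC; 1 point per line, each 1 library against 1). TNFAIP3 is to the right of 0 in all 4 lines on the left, and all 10 CALU points are to the right of 0 on the right.

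Knockdown TICs were compared with TICs to ask what depends on PRKCI in the tumor-initiating state. All 10 fitted differences pointed to higher levels after the knockdown, none passed the test, and 6 of them turned lower without the CALU knockdown library. BIRC3 had the largest, from a mean of 106 CPM in TICs (SD 34.3, n = 4 lines) to 395 in knockdown TICs (SD 375, n = 4 lines). It was 8.96-fold the TIC level in CALU, 3.24-fold in H1299, 1.49-fold in CHAGO and 0.825-fold in H1703. Its log2 fold change was 1.58 (SE 0.91, unadjusted p = 0.116, edgeR adjusted p = 0.980). NFKBIZ followed with 1.33 (SE 0.73, unadjusted p = 0.0994, edgeR adjusted p = 0.980), from 12.1-fold in H1703, 4.74-fold in CHAGO, 1.91-fold in CALU and 0.864-fold in H1299. NFKB2 had 1.29 (SE 1.16, unadjusted p = 0.294, edgeR adjusted p = 0.980), of which CALU alone had a 9.64-fold higher level.

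Of the 10 genes 0 were called by edgeR, beside 0.0143% of all genes tested. No gene of the 10 had an unadjusted p under 0.05, beside 4.28% of all genes, and DESeq2 and voom also called 0. The median log2 fold change of the 10 was 0.38, beside −0.01 over all genes, of which 49.1% were higher. Without the CALU knockdown library the log2 fold change turned to −0.24 for NFKB1, −0.018 for NFKB2, −0.016 for RELA, −0.32 for NFKBIA, −0.27 for NFKBIE and −0.16 for ICAM1, while BIRC3, NFKBIZ, RELB and TNFAIP3 stayed above 0. Leaving out a whole line also turned directions. TNFAIP3 turned to −0.077 without CALU, −0.13 without H1299 and −0.23 without CHAGO, ICAM1 to −0.049 without CALU and −0.32 without H1299, RELB to −0.37 without CHAGO and NFKB1 to −0.029 without H1703. Without CALU NFKB1 turned to −0.29, RELA to −0.076, NFKBIA to −0.010 and NFKBIE to −0.20.

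In CALU 10 of 10 genes were higher in knockdown TICs than in TICs, beside 48.2% of all genes, and 4 of them by over 1 in log2 CPM, beside 13.5%. Those 4 were NFKB2 (3.22), BIRC3 (3.16), NFKBIE (1.64) and NFKBIA (1.49). In CHAGO 6 of 9 were higher (50% of all genes) and in H1299 6 of 10 (50.3%). In H1703 2 of 9 were higher (49.3% of all genes), NFKB1 and NFKBIZ, and TNFAIP3 was lower, at 1 read against 51.

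Knockdown TICs against parental cells share their libraries with the comparisons above, so their values are no separate evidence. TNFAIP3 had a log2 fold change of 3.18 (SE 0.92, unadjusted p = 0.00589, edgeR adjusted p = 0.251). ICAM1 had 3.58 (SE 0.77, unadjusted p = 0.00091, edgeR adjusted p = 0.171), from 9.98-fold in H1299 and 23.9-fold in CALU. Of the 10 genes edgeR called 0, beside 0.0357% of all genes, and 2 had an unadjusted p under 0.05, beside 10.7%. DESeq2, which called 395 of all genes tested, called both of them (adjusted p = 0.00600 for TNFAIP3 and 0.00785 for ICAM1) and voom in limma called 0. Over the alternatives run with edgeR, DESeq2 and limma the adjusted p ran from 0.00600 to 0.9999 for TNFAIP3 and from 0.00785 to 0.9999 for ICAM1. In CALU 10 of 10 were higher than in parental cells (48.9% of all genes), 8 of them by over 1 (19% of all genes), and in CHAGO 9 of 9 were higher (49.2%). In H1299 5 of 10 (49.6%) and in H1703 3 of 9 (48.9%) were higher. NFKB2 in CALU was 26.2-fold and NFKBIA 13.8-fold the parental level.

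**Figure D4:**
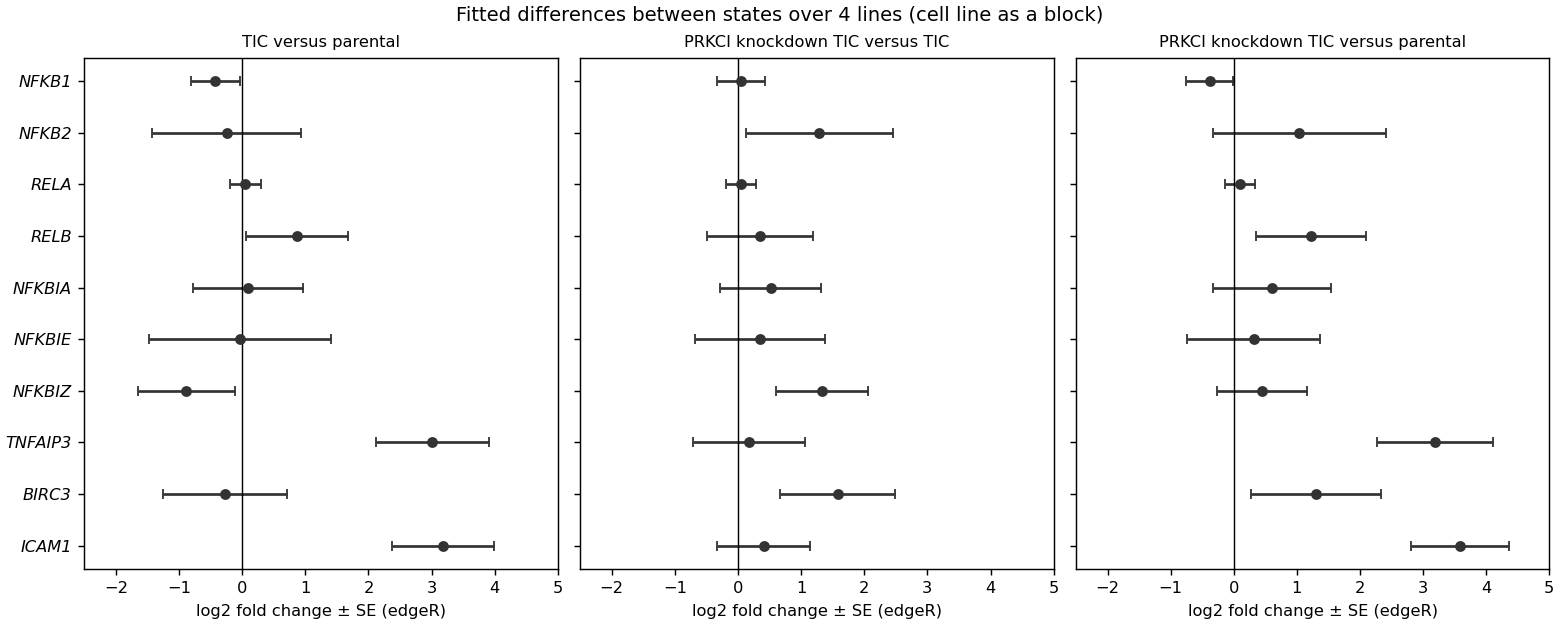
Fitted log2 fold changes of the 10 genes between states over the 4 lines (x axis; points, edgeR estimates with the cell line as a block; bars, 1 SE). TNFAIP3 and ICAM1 lie near 3 in the comparisons with parental cells, and no gene passed an adjusted p of 0.05.

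Levels were also compared between the lines. The test asks whether lines differ by more than the spread left after state, and the 3 libraries of a line differ in state and are not independent samples of it. It called 4 of the 10 genes in edgeR, beside 45.4% of all genes tested: ICAM1 (adjusted p = 3.82e-05), TNFAIP3 (0.00884), NFKBIZ (0.0120) and RELA (0.0156). A share of 4 in 10 is near the share of all genes. Leaving out CALU left 2 of the 10 called, with edgeR adjusted p of 0.134 for TNFAIP3 and 0.0676 for NFKBIZ. The edgeR adjusted p of RELA was 0.362 without H1703 and 0.0517 without CHAGO, and that of NFKBIZ was 0.0777 without H1703 and 0.0603 without the CALU knockdown library. DESeq2 called 7, and voom in limma did not call NFKBIZ (adjusted p = 0.0753). Over all genes the calls of this test ran from 4351 to 7914 in the alternatives, and from 4351 to 5841 with a line or library left out. The number of all genes called thus changed with the setting as well. The counts of 2 and 7 are therefore not read as results about the 10 genes.

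H1703 stood apart for 5 genes (25.5% of all genes were called). RELA was higher there than the mean of the other lines by 1.002 on the log2 scale (SE 0.22, edgeR adjusted p = 0.00802) and NFKB2 by 2.85 (SE 0.93, edgeR adjusted p = 0.0467). NFKBIZ was lower (−3.19, SE 0.82, edgeR adjusted p = 0.0175), as were TNFAIP3 (−4.15, SE 1.03, edgeR adjusted p = 0.0153) and ICAM1 (edgeR adjusted p = 0.00134). The edgeR adjusted p of NFKB2 was 0.199 without the H1703 parental library and 0.105 without CHAGO, and that of TNFAIP3 was 0.0887 without CALU. With no filter on low counts NFKB2 had an edgeR adjusted p of 0.0527, and voom in limma gave NFKBIZ 0.0617. NFKBIE was higher in H1703 by 2.36 without passing the test (SE 0.84, unadjusted p = 0.0184, edgeR adjusted p = 0.0654), nor did RELB (1.18), NFKB1 (0.40), NFKBIA (−0.41) or BIRC3 (−0.18) pass it.

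CALU stood apart for 3 genes (25.5% of all genes), all higher: NFKBIZ by 3.11 (SE 0.65, edgeR adjusted p = 0.00644), TNFAIP3 by 3.66 (SE 0.69, edgeR adjusted p = 0.00403) and ICAM1 (edgeR adjusted p = 1.94e-05). CHAGO stood apart for 3 genes (28.4% of all genes), all lower: RELA (−0.77, SE 0.24, edgeR adjusted p = 0.0366), NFKBIE (−3.97, SE 1.20, edgeR adjusted p = 0.0324) and ICAM1 (edgeR adjusted p = 0.00639). Without H1703 only 1 gene was called for CHAGO, with edgeR adjusted p of 0.243 for RELA and 0.122 for NFKBIE. With a line or library left out, 3599 to 3889 of all genes were called for CHAGO. RELA in CHAGO had an edgeR adjusted p of 0.0653 without the CALU knockdown library and 0.0509 without the H1703 parental one, and NFKBIZ in CALU had 0.0649 without the CALU knockdown library and 0.0537 without H1703. With no filter on low counts RELA in CHAGO had an edgeR adjusted p of 0.0530, and voom in limma gave NFKBIZ in CALU 0.0748. H1299 was called for ICAM1 alone (edgeR adjusted p = 0.000127, 16.9% of all genes), and without H1703 for 2 genes. With a line or library left out, 1784 to 2536 of all genes were called for H1299. ICAM1 was thus called for every line, higher in H1299 and CALU and lower in H1703 and CHAGO, so its calls are particular to no single line.

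For ICAM1 the fitted fold depends on the prior count, since 2 lines had almost no reads, so levels are given in place of folds. All reads of a line together gave 112 unscaled CPM in CALU (95% Poisson interval 111 to 114) and 29.2 in H1299 (28.0 to 30.4). They gave 0.0134 in H1703 (1 read, 0.000340 to 0.0747) and 0.0133 in CHAGO (3 reads, 0.00274 to 0.0388). The intervals of H1703 and CHAGO overlap, and both lie far below those of the other lines.

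Markers of other cell types also followed the line. The fibroblast markers COL1A1, COL1A2, PDGFRB, LUM and DCN summed to 389 to 1464 CPM in CALU and to at most 5.72 CPM in the other lines, and 4 of these 5 genes passed the filter on low counts. Of the epithelial markers 5 of 5 passed it, with the sums given above. Each library came from a named cell line, so the markers describe levels within that line. Their part in the differences between lines was not tested. In bulk RNA, fewer cells of a line with a transcript and less of it per cell cannot be told apart.

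**Figure D5:**
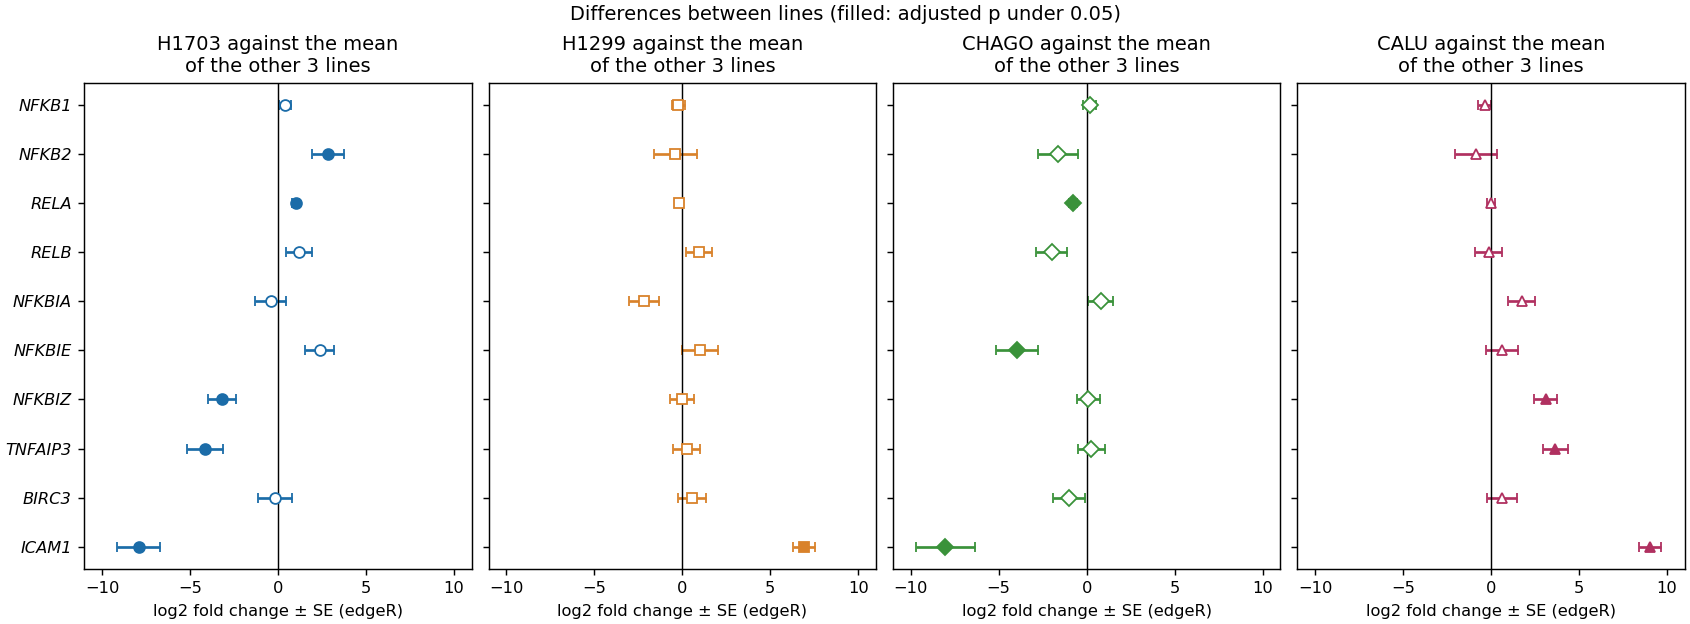
Fitted log2 difference of each line from the mean of the other 3 lines for the 10 genes (x axis; points, edgeR estimates adjusted for state; bars, 1 SE; filled points have an adjusted p under 0.05). H1703 has 5 filled points, CHAGO and CALU 3 each and H1299 1, and the ICAM1 estimates rest on at most 3 reads in H1703 and CHAGO.

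The rest of the pathway was described from 5 lists, and edgeR called 0 genes of each list in each of the 3 state comparisons. Genes named from a list were among the 4 with its smallest p in the comparison concerned. A shared direction in 4 of 4 lines follows in part from that choice and is no separate evidence. Of all genes 8.32% were higher in TICs in 4 of 4 lines, and the shares for the other direction and comparison are not given. In TICs against parental cells an unadjusted p under 0.05 was reached by 1 of 5 other Rel and IkB family genes, 3 of 21 receptors and adaptors, 1 of 14 kinases and their partners, 4 of 15 other feedback regulators and 3 of 21 other target genes, beside 11.8% of all genes. In knockdown TICs against TICs it was reached by 0, 2, 1, 1 and 5 genes of these lists, beside 4.28% of all genes. Of the list genes named below, DESeq2 called TNFRSF1B (adjusted p = 0.0196), CFLAR (0.0426), ZC3H12A (0.0135), IER3 (0.0414) and SDC4 (0.0225) in TICs against parental cells, and none in knockdown TICs against TICs. Among the other target genes 19 of 21 tested were higher in knockdown TICs than in TICs, beside 49.1% of all genes. Their median log2 fold change was 1.30 (−0.01 over all genes). The median difference in log2 CPM was 2.89 in CALU, 0.96 in H1299, 0.86 in CHAGO and −0.63 in H1703, with H1703 alone negative. Each of these medians compares 1 library with 1 library. Genes with few or no reads in a line were kept in them, such as IL6 and CXCL1 in H1703. Whether H1703 differs from the other lines was not tested for this list. CXCL1, a neutrophil chemokine, was at 52.6 CPM in CALU TICs and 3470.2 in CALU knockdown TICs, and at 0 in H1703 and CHAGO TICs and knockdown TICs. IL6, a cytokine, was at 45.8 and 119 CPM in CHAGO TICs and knockdown TICs and at 8.48 and 497 in CALU, and had no reads in H1703 and H1299. CD83, a surface glycoprotein, was higher in knockdown TICs in 4 of 4 lines (log2 fold change 2.53, SE 0.68, unadjusted p = 0.00400, edgeR adjusted p = 0.980). CFB, complement factor B, was as well (2.79, SE 0.89, unadjusted p = 0.0107, edgeR adjusted p = 0.980). Some of these levels were low: CD83 stood at 0.180 and 0.425 CPM in H1703 TICs and knockdown TICs, and CFB at 0.194 and 1.32 in those of H1299.

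In TICs against parental cells 11 of the 21 other target genes were higher (median 0.34), beside 48.7% of all genes. SDC4, a syndecan, had a log2 fold change of 1.37 with higher levels in 4 of 4 lines (SE 0.39, unadjusted p = 0.00587, edgeR adjusted p = 0.240). IL8, a neutrophil chemokine, was at 0 and 30.1 CPM in CHAGO parental cells and TICs and at 11.3 and 114 in CALU (unadjusted p = 0.00333, edgeR adjusted p = 0.210), and stood at 6540 CPM in CALU knockdown TICs. CD83 was lower in TICs in 4 of 4 lines (−1.62, SE 0.68, unadjusted p = 0.0372, edgeR adjusted p = 0.382), while it was higher in knockdown TICs than in TICs, and both comparisons use the same TIC libraries.

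Among the other feedback regulators 10 of 15 tested were higher in TICs (median 0.13), beside 48.7% of all genes, and 4 of them had an unadjusted p under 0.05. CFLAR, which encodes the caspase inhibitor cFLIP, was higher in 4 of 4 lines (0.85, SE 0.25, unadjusted p = 0.00653, edgeR adjusted p = 0.242). So was ZC3H12A, an RNase that degrades cytokine transcripts (4.57, SE 1.51, edgeR adjusted p = 0.288). IER3, an early response gene (1.70, SE 0.63, edgeR adjusted p = 0.335), and TRAF1, an adaptor (1.70, SE 0.74, edgeR adjusted p = 0.407), were also higher in 4 of 4 lines. ZC3H12A stood at 0.145, 0 and 0.0450 CPM in H1703, H1299 and CHAGO parental cells, against 1.53, 1.74 and 2.34 in TICs. TRAF1 stood at 0.0150 and 0.171 CPM in CHAGO parental cells and TICs. Both genes had few reads in those parental libraries. After the knockdown 8 of the 15 were higher (median 0.03), beside 49.1% of all genes. CYLD, a deubiquitinase that restrains the pathway, was higher in 4 of 4 lines (0.87, SE 0.32, unadjusted p = 0.0200, edgeR adjusted p = 0.980).

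Among the receptors and adaptors 15 of 21 tested were higher in TICs (median 0.38), beside 48.7% of all genes. After the knockdown it was 14 of 21 (median 0.26), beside 49.1% of all genes. TNFRSF1B, the second receptor of tumor necrosis factor, was at 0.156 and 7.23 CPM in H1299 parental cells and TICs, at 0.870 and 7.76 in CHAGO and at 2.56 and 6.35 in CALU, with no reads in H1703 (3.16, SE 0.93, edgeR adjusted p = 0.266). IRAK1, a kinase of the interleukin 1 receptor, was lower in 4 of 4 lines (−0.85, SE 0.32, edgeR adjusted p = 0.342). TLR2, a receptor for bacterial lipoproteins, was at 178 and 989 CPM in CALU TICs and knockdown TICs and at 0.0646 and 8.87 in H1299, with no reads in H1703 and CHAGO (4.16, SE 1.13, edgeR adjusted p = 0.980).

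Of the IkB kinases and their partners 5 of 14 tested were higher in TICs (median −0.14), beside 48.7% of all genes. After the knockdown it was 9 of 14 (median 0.33), beside 49.1% of all genes. IKBKB, the catalytic kinase of the fast branch, was lower in TICs in 4 of 4 lines (−1.29, SE 0.58, unadjusted p = 0.0499, edgeR adjusted p = 0.423). TAB2, an adaptor of the kinase TAK1, was higher after the knockdown in 4 of 4 lines, by 0.32 to 0.47 in log2 CPM (0.38, SE 0.16, unadjusted p = 0.0338, edgeR adjusted p = 0.980). In the rest of the Rel and IkB family 3 of 5 genes were higher in TICs (48.7% of all genes) and 1 of 5 after the knockdown (49.1% of all genes). BCL3, a nuclear IkB protein, was higher in TICs in 4 of 4 lines (2.22, SE 0.99, unadjusted p = 0.0481, edgeR adjusted p = 0.416), and REL, the remaining activating subunit, was the 1 that was higher after the knockdown (0.93, SE 0.51, unadjusted p = 0.0996, edgeR adjusted p = 0.980).

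The 10 genes did not follow 1 common pattern over the 12 libraries. As a description over libraries that share lines, Pearson's r of log2 CPM was 0.87 for RELA with NFKBIE, 0.76 for RELA with NFKB2 and 0.68 for TNFAIP3 with ICAM1, and −0.57 for RELA with NFKBIZ. After each line's mean was removed it was 0.85 for RELB with TNFAIP3, the highest of all pairs, and 0.75 for NFKBIA with BIRC3. NFKBIZ with TNFAIP3 went from 0.56 to −0.32. Low counts enter these values, since TNFAIP3 had 6, 51 and 1 reads in H1703 and NFKBIZ had 9 in H1703 TICs. Among 8748 other genes of moderate or high level, those most like a member over the 12 libraries were IMPAD1 for ICAM1 (0.97), ATP5H for RELA (0.96), DLC1 for NFKBIE (0.95) and C9orf5 for TNFAIP3 (0.94), and ZNF511 for NFKB1 (0.88).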

How the data were processed

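Per the labels' protocols, total RNA came from a Qiagen RNeasy extraction and was turned into libraries with NuGEN reagents. Per the submitters' processing notes, hg19 was used along with HTSeq 0.5.3p3, TopHat 1.4 and CASAVA 1.4, whose roles are not given. The authors deposited whole read counts per gene, analysed here. They also deposited mode-normalized values, a score used here only as an alternative. A filter on low counts (filterByExpr of edgeR 4.0.16) left 14008 of 22506 listed genes, 4044 of which had no read. Counts were scaled with TMM and fitted with edgeR's robust quasi-likelihood model with terms for state and cell line on 12 libraries (6 residual degrees of freedom, biological coefficient of variation 0.699, R 4.3.3). Two-sided p-values were adjusted by Benjamini and Hochberg's method across the 14008 genes and called at 0.05. The line named in the labels pairs libraries: after state means were removed, same-line libraries had correlations of 0.553 to 0.760 (12 pairs), and the rest of −0.495 to −0.0601 (54 pairs). P-values measure the spread between single libraries of 4 lines. Log2 CPM used a prior count of 2. DESeq2 1.42.0 and limma 3.58.1 were run as alternatives.

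The members and lists were chosen with earlier results of these data known. Named genes are the 10 members, PRKCI, up to 4 genes per list with the smallest p in each of 2 comparisons (the text gives some of them), and for each member the genes with the highest correlation. Counts were simulated for 14008 genes with the spread fitted to genes of like level, and only genes with a mean log2 CPM above 2 were changed. Changes of 2 and 3 on the log2 scale were recovered for 68% and 80% of 50 genes each in TICs against parental cells. In knockdown TICs against TICs they were recovered for 68% and 92%. NFKB2, RELB, NFKBIE and ICAM1 averaged below that level, so these rates do not cover them. The rates describe simulated counts only, in which log2 changes of 1, 2, 3 and 4 were placed in 50 genes each. In the deposited counts edgeR called 4 of all genes in TICs against parental cells and 2 in knockdown TICs against TICs. Whether the rates hold for the deposited counts, where lines often differed in direction, was not tested. Promoters and starts are from RefSeq (GRCh38.p14), and gene overlaps from GENCODE v29. Coordinates of the counted genes are not given, since the counts rest on hg19.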

Additional observations from a re-analysis of the deposited data

Results flagged for a closer look

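In TICs the RELA level of H1703 lay far above those of the other 3 lines, with 0.943 of the whole range of log2 CPM of the 4 libraries in the gap. The limit used was the 95% critical value of Dixon's test for 4 samples, which chance alone passes in about 1 in 20 groups. The 10 genes were searched in each of the 3 states and only this group was flagged, which is not beyond what chance gives.

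The other results listed here are pairs of lines whose single libraries differed in opposite directions by over 1 in log2 CPM. None of these differences between lines was tested, since each line and state has 1 library. In TICs against parental cells NFKB2 differed by 1.81 in CHAGO and −2.14 in H1299, NFKBIA by 2.296 in CALU and −2.22 in H1703, and NFKBIE by 1.59 in CHAGO and −3.27 in H1299. In that comparison NFKBIZ differed by 1.93 in CALU and −3.29 in H1703, and BIRC3 by 2.99 in CHAGO and −2.24 in H1703. In knockdown TICs against TICs NFKB2 differed by 3.22 in CALU and −1.31 in H1299, RELB by 1.79 in CHAGO and −1.68 in H1703, and TNFAIP3 by 1.01 in H1299 and −4.93 in H1703, the last from 51 reads and 1 read. In knockdown TICs against parental cells NFKB2 differed by 4.57 in CALU and −3.45 in H1299, NFKBIA by 3.78 in CALU and −2.77 in H1703, and NFKBIE by 1.95 in CALU and −1.65 in H1299. TNFAIP3 differed by 4.87 in CHAGO and −1.74 in H1703, and BIRC3 by 3.56 in CHAGO and −2.52 in H1703. H1703 or H1299 held the lower value of each of these pairs.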

How the results depend on the processing

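Over the alternatives the number of the 10 genes called stayed at 0 in TICs against parental cells and in knockdown TICs against parental cells, except under DESeq2, which called 2 in each, and at 0 in knockdown TICs against TICs. DESeq2 called 7 of the 10 for the differences between lines. The edgeR fits with a line or library left out called 2 to 6 of the 10, beside 4351 to 5841 of all genes. Over all genes the alternatives called 4351 to 7914 in that test. For H1299 DESeq2 called 2 of the 10, beside 3676 of all 14008 genes. The edgeR fits with a line or library left out called 1 to 2 for H1299, beside 1784 to 2536 of all genes. For CHAGO 1 to 3 genes were called with a line or library left out, beside 3599 to 3889 of all genes tested. Over all genes the calls ran from 0 to 511, 0 to 11 and 0 to 395 in the 3 state comparisons, with 4, 2 and 5 as reported. Without the replicate block for the cell line 0 of the 10 genes and 0 of all genes were called in each state comparison, and the pairing by line changed 3 directions, to 0.53 for NFKBIZ in TICs against parental cells and to −0.00055 for NFKB1 and −0.24 for RELB in knockdown TICs against TICs.

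The directions that changed belong to log2 fold changes that missed the threshold, and the cause was not tested. In TICs against parental cells NFKBIE turned to 0.0046 with DESeq2 size factors, 0.0033 with DESeq2 and 0.13 with only the 2 groups compared. NFKB2 turned to 0.29 with voom, 0.35 with the mode-normalized values and 0.35 with only the 2 groups compared, NFKBIZ to 0.41 with voom, and BIRC3 to 0.28, 0.25 and 0.046 in those settings. With libraries or lines left out NFKB2 ran from −0.90 to 0.90, RELA from −0.11 to 0.17, NFKBIA from −0.41 to 1.36, NFKBIE from −0.83 to 1.11 and BIRC3 from −1.17 to 1.16. In knockdown TICs against TICs RELA turned to −0.011 and TNFAIP3 to −0.42 with the mode-normalized values. With libraries or lines left out NFKB1 ran from −0.29 to 0.39, NFKB2 from −0.018 to 1.80, RELA from −0.076 to 0.14, RELB from −0.37 to 0.85, NFKBIA from −0.32 to 0.81, NFKBIE from −0.27 to 0.91, TNFAIP3 from −0.23 to 0.94 and ICAM1 from −0.32 to 0.81. In knockdown TICs against parental cells NFKB2 ran from −0.48 to 2.61, NFKBIA from −0.42 to 1.89 and NFKBIE from −0.37 to 1.31. Chosen after seeing the data were the fits without the CALU knockdown library or the H1703 parental library, the mode-normalized counts per line, and all alternatives for a single line against the other 3. At 4 lines a state, a simulated log2 change of 1 was recovered for 8% of 50 genes of moderate or high level in TICs against parental cells. This limits what the design can detect, and genes of low level were not simulated with a change.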
